A study of Homo sapiens with 6 samples.

Results

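The genes described here are the HES and HEY repressors, the Notch ligands and the Notch receptor measured in RBM12-depleted human neurons with and without isoproterenol. The list of 10 genes was drawn up by gene family and name (HES1, HES4, HES5, HES6, HEY1, DLL1, DLL3, JAG1, NOTCH1 and NOTCH2), and 9 of them were followed among the 19823 genes of the table. NOTCH1 was not analysed here. All 9 had enough reads to be tested, among 18130 tested genes.

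Notch signaling passes between neighbouring cells. A ligand of the DLL or JAG family on one cell binds a NOTCH receptor on the next, proteases release the receptor's intracellular domain, and this domain joins the DNA-binding protein RBPJ and Mastermind coactivators to switch on HES and HEY genes. The HES and HEY proteins are basic helix-loop-helix transcription factors that recruit corepressors of the TLE family and, in the developing nervous system, hold proneural genes such as NEUROG2 in check, while newborn neurons express DLL1 and DLL3. HES1 has also been described as a target of CREB, the transcription factor activated by cAMP.

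The samples were glutamatergic excitatory neurons (iNeurons) derived from WTc11, a widely used reference line of human pluripotent stem cells made by reprogramming. All 6 samples carried an RBM12 knockdown made by CRISPR interference, in which a catalytically dead Cas9 fused to the KRAB repressor domain is guided to the gene. They were otherwise parental, with no receptor added, so that the agonist acted on receptors at their native level, and neurons formed after doxycycline-induced expression of a transgene encoding the proneural factor NGN2 (the product of NEUROG2). Of these, 3 were untreated and 3 received isoproterenol, an agonist that raises cAMP, at a dose and time that the labels do not give, and poly(A) RNA was sequenced. The comparison asks which genes respond to receptor activation in RBM12-depleted neurons. Neurons with a nontargeting guide were not analysed here, so neither the depth of the knockdown nor its own effect on Notch genes could be measured.

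Values are normalized counts, that is, reads per gene divided by a size factor for the sample. The samples held 18116816 to 21488793 reads assigned to genes, and 3 samples per group and this depth limit the precision of every gene below about 100 counts. Nothing in the labels says whether same-group samples came from separate cultures, so the spread between these samples may be technical. The limma p-values rest on this spread after moderation, in which each gene's variance is drawn toward that of genes at a similar level. RBM12 stood at 244.3, 278.7 and 266.9 in untreated replicates 1 to 3 and at 194.6, 237.6 and 232.8 with isoproterenol, and this difference did not pass the test (limma adjusted p = 0.607). The agonist's effect was visible in NR4A3, a nuclear receptor gene induced by neuronal activity, which rose from 1225 ± 112.6 to 1715 ± 155.6 (SD, n = 3 per group; limma adjusted p = 0.0324). FOS, a subunit of the AP-1 transcription factor, had 535.7, 648.3 and 679.6 normalized counts untreated and 1219.3, 1649.2 and 2337.7 with isoproterenol (adjusted p = 0.435 by limma, 0.0268 with the replicate number as a block). FOSB and NR4A1 had log2 fold changes of 4.393 and 2.281 and were not called by limma without the block (adjusted p = 0.273 and 0.456). In same-numbered pairs 1 to 3 the log2 ratios of FOSB were 3.043, 5.57 and 4.566, and its moderated p-value does not measure this spread alone. With the block FOSB was called (limma adjusted p = 3.08e-16) and NR4A1 was not (0.119). A gene left uncalled may therefore still have changed. All 12 listed glutamatergic neuron markers were present and tested. Of these, 10 had a log2 fold change above 0 (50.5% of all tested genes), with a median of 0.021. With the block limma called 1 higher (GRIN1, a glutamate receptor subunit) and 1 lower (NEFL, a neurofilament protein), against 2.82% and 2.06% of all genes. The summed level of the 12, 441500 to 454000 untreated and 432500 to 446000 with isoproterenol, is mostly NEFL (289400 ± 5204 and 280400 ± 4650, SD, n = 3).

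None of the 9 genes changed with isoproterenol past the threshold, an adjusted p under 0.05. This held in limma without the replicate number (0 of 9, against 0.0165% of all tested genes) and with it as a block (0 of 9, against 2.82% of all genes called higher and 2.06% called lower), and in edgeR and DESeq2 with and without the block. DESeq2 gave no adjusted p for HES1 and, with the block, none for HES5, JAG1 and NOTCH2. At an unadjusted p under 0.05, limma found 0 of the 9 without the block, against 7.68% of all genes, and 1 with it, HES6, against 16.2%. Fold changes were above 0 on the log2 scale in 7 of the 9, with a median of 0.078, beside 50.5% of all tested genes above 0 and a median of 0.00153. The median of the 9 was 0.0161 without isoproterenol replicate 3 and 0.144 without pair 2. The untreated and isoproterenol ranges overlapped for every one of the 9, whereas they separated for 6.73% of all genes with isoproterenol higher and for 6.19% with isoproterenol lower. Within same-numbered pairs, HES6 and NOTCH2 (2 of 9) were higher in the treated sample of all 3 pairs and HES4 (1 of 9) was lower in all 3, beside 18.5% and 17.6% of all genes, shares not far from those of these 9 genes.

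**Figure D1:**
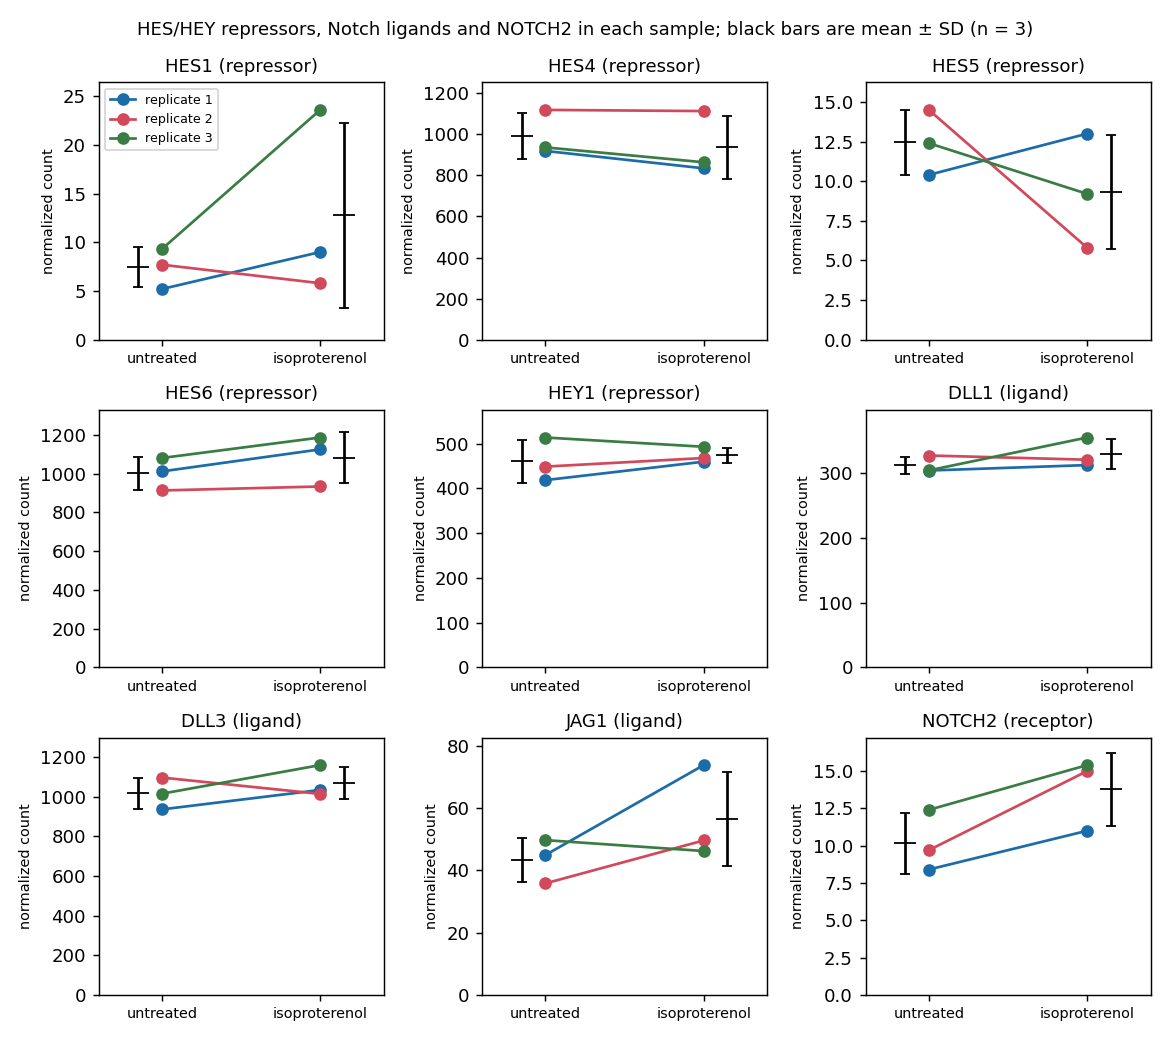
Normalized counts (y axes, each starting at 0) of the 9 genes in untreated and isoproterenol-treated samples; each line joins the 2 samples with the same replicate number, and black bars give mean ± SD (n = 3). The lines cross or the ranges overlap in every panel, and replicate 2 is highest for HES4 and lowest for HES6 in both groups.

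The precision differed between an abundant and a sparse set. For the 5 genes with at least 300 normalized counts untreated (HES4, HES6, HEY1, DLL1 and DLL3), fitted log2 fold changes ran from -0.088 to 0.107, that is, 0.941-fold to 1.08-fold. Without the block, the 95% confidence intervals of these 5 reached no further than 0.36 from 0 on the log2 scale. A change of more than 1.28-fold in either direction lay outside them. With the block the furthest bound was 0.246, for DLL1. For the other 4 (HES1, HES5, JAG1 and NOTCH2) the intervals were wider. Without the block they reached up to 1.54 on the log2 scale, the upper bound for HES1.

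**Figure D2:**
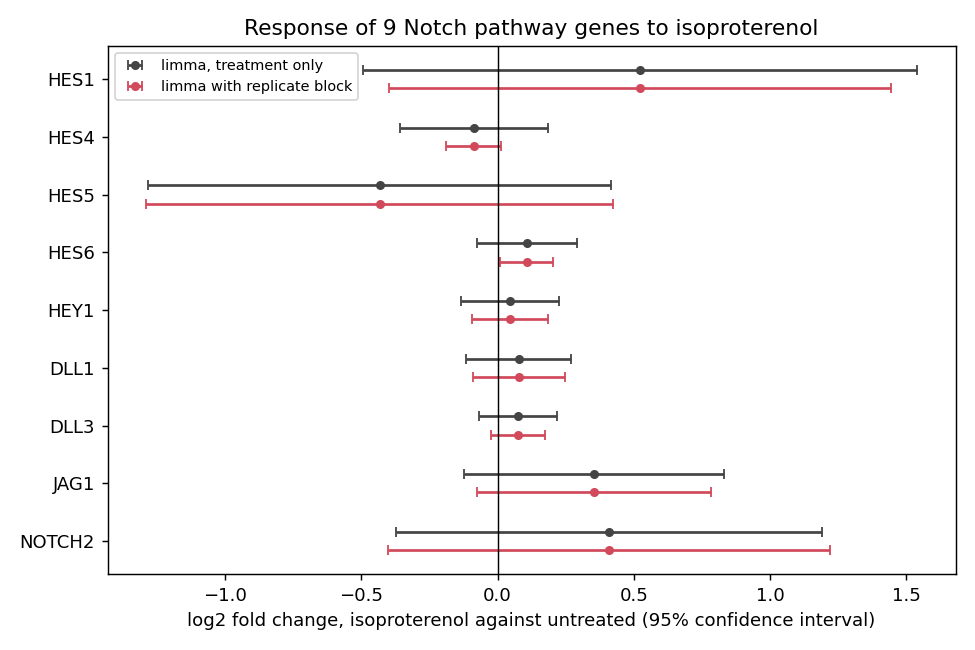
Log2 fold change of each gene, isoproterenol against untreated (points), with 95% confidence intervals (bars), from limma with treatment only (grey) and with the replicate number as a block (red). Intervals include 0 for all 9 genes without the block, and with it only that of HES6 (0.01 to 0.204) does not.

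Levels between genes can be compared per length of exon. HES4 stood highest, at 887 ± 99 normalized counts per kb in untreated neurons (SD, n = 3), followed by HES6 at 512 ± 43.1 and DLL3 at 388 ± 30.7. Next came HEY1 at 83.9 ± 8.89 and DLL1 at 81.6 ± 3.49 per kb, which did not differ beyond their spread. HES5 followed at 9.41 ± 1.54. JAG1 (4.67 ± 0.757) and HES1 (3.61 ± 1.0) had overlapping ranges of mean ± SD, although neither mean lay in the other's range. NOTCH2 was lowest at 0.606 ± 0.124 per kb. With the length of the longest transcript in place of all exons the order was the same, but neither of these overlaps was kept. HEY1 then stood at 119 ± 12.6 against 82.5 ± 3.52 for DLL1, and JAG1 at 7.32 ± 1.18 against 4.71 ± 1.31 for HES1. HES5 stayed at 9.41 ± 1.54, so that the mean ± SD ranges of HES5 and JAG1 now overlapped, with neither mean in the other's range. These steps thus depend on the length used. HES4, HES6 and DLL3 together made up 77.1% to 78.8% of the normalized counts of the 9 genes in each sample.

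**Figure D3:**
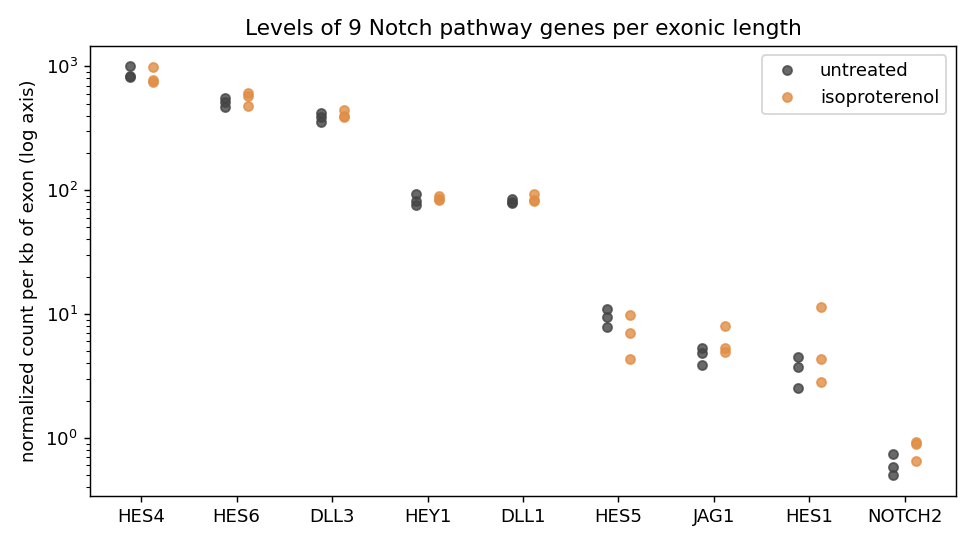
Normalized counts per kb of exon (log axis) of the 9 genes in the 3 untreated (grey) and 3 isoproterenol-treated (orange) samples, ordered by the untreated mean. HES4, HES6 and DLL3 lie at 357 per kb or more, HEY1 and DLL1 between 76.3 and 93.7, and HES5, JAG1, HES1 and NOTCH2 at 11.5 or less.

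Of the 9 genes, 6 had a RefSeq promoter sequence to examine, and the 3 printed here, of HES1, HES4 and HES5, are those that contain the letters TGGGAA, the core that RBPJ recognises. Each run gives the 250 bases before the RefSeq transcription start (GRCh38.p14) 5′ to 3′ on the strand of the gene, with TGGGAA or its reverse complement in capitals.

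HES1 (chr3:194135898-194136147, plus strand): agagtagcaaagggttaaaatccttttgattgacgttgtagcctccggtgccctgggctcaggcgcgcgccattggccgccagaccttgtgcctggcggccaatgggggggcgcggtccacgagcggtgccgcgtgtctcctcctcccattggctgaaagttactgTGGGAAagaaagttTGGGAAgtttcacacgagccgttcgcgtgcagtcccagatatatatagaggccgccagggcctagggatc

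HES4 (chr1:1000098-1000347, minus strand): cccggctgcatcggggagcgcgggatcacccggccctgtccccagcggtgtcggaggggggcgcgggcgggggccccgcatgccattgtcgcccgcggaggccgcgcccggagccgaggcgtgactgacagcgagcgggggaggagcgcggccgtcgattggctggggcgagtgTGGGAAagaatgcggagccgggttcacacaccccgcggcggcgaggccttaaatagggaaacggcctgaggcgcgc

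HES5 (chr1:2530264-2530513, minus strand): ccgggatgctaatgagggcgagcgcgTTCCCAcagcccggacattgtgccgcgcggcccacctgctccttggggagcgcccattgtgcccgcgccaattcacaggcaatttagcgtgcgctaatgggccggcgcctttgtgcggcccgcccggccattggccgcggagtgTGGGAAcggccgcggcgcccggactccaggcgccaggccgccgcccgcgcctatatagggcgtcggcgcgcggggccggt

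The HES1 window held 2 matches to TGGGAA, at 84 to 79 and 70 to 65 bases before the start, both on the strand of the gene. HES4 had 1 match, at 76 to 71 bases before the start. GENCODE places the 5′ end of HES4 at position 1000172, inside this match, so by that annotation most of the match lies within the gene. HES5 had 1 match at 80 to 75 bases on the strand of the gene and 1 at 224 to 219 bases on the opposite strand. On either strand, 20.8% of the 35116 RefSeq promoter windows of the same length held TGGGAA. The longer form GTGGGAA, which overlaps the core match, occurred in HES1, HES4 and HES5 and in 5.43% of all windows. The full cAMP response element TGACGTCA, held by 1.65% of windows, was in none of the 6 genes. Its shorter form TGACG, which lies within it and was held by 21.2% of windows, was in HES1 alone, at 220 to 216 bases before the start. HES1 also carried 3 matches to CACNAG, the N box that HES proteins bind (32% of windows). The HES6, JAG1 and NOTCH2 windows contained none of these letters. These matches describe the letters in the windows, and no measurement of binding bears on them here.

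HES1, the founding mammalian HES repressor and an oscillating gene of neural progenitors, was close to the limit of measurement. Untreated replicates 1 to 3 had 5.2, 7.7 and 9.3 normalized counts, against 9.0, 5.8 and 23.6 with isoproterenol. Isoproterenol replicate 3 was the highest of the 6 samples, with 23 reads (exact 95% Poisson interval for counting error only, 14.6 to 34.5) against 5 to 9 in the others. The intervals of untreated replicate 2 (3.45 to 15.8), untreated replicate 3 and isoproterenol replicate 1 (both 4.12 to 17.1) overlapped it. Isoproterenol against untreated gave a log2 fold change of 0.52 (SE 0.486, 95% interval -0.495 to 1.54, limma adjusted p = 0.841), and 0.79 by edgeR on the recovered reads (adjusted p = 0.75). The treated sample was higher in pairs 1 and 3, by 0.68 and 1.25 on the log2 scale, and lower in pair 2, at -0.37. Without isoproterenol replicate 3 the log2 fold change was -0.0049. The same sample had the highest FOS (2337.7), FOSB (267.7), NR4A1 (1023.7) and NR4A3 (1879.2) of the treated samples, and the part of this in the HES1 value was not tested. In these bulk samples, fewer cells of a type and less RNA per cell cannot be told apart.

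HES4, a HES1-like repressor that has a human gene but no mouse counterpart, was the most abundant of the 9 per kb. Untreated replicates 1 to 3 had 918.9, 1118.6 and 936.2 normalized counts, against 834.2, 1112.9 and 863.7 with isoproterenol. Replicate 2 was the highest sample of each group, and the groups overlapped. Its log2 fold change was -0.088 (SE 0.119, 95% interval -0.36 to 0.185, limma adjusted p = 0.91). HES4 was lower in all 3 pairs, at -0.139, -0.007 and -0.116, and the block narrowed the interval to -0.188 to 0.013 (limma adjusted p = 0.405). Without untreated replicate 2 the unblocked value was 0.0024.

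HES6, a family member that inhibits HES1 and promotes neuronal differentiation, was ordered the other way across replicates. In the same order, counts were 1010.8, 912.5 and 1080.0 untreated and 1124.5, 933.0 and 1185.8 with isoproterenol. Replicate 2 was the lowest of each group, and treated replicates 1 and 3 lay above all untreated samples. The log2 fold change came to 0.11 (SE 0.0854, 95% interval -0.076 to 0.29, limma adjusted p = 0.808). It was higher in all 3 pairs, at 0.15, 0.032 and 0.14 on the log2 scale, and with the block the interval was 0.01 to 0.204 (limma adjusted p = 0.239). Leaving out treated replicate 3 gave an unblocked value of 0.0365, and leaving out treated replicate 2 gave 0.209.

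HES4 and HES6 varied with the replicate number. In a test of the replicate number in the blocked limma fit, chosen after these values were seen, HES4 (adjusted p = 6.02e-06) and HES6 (adjusted p = 0.000402) passed, 2 of the 9, against 10.3% of all genes. HES1, HES5, HEY1, DLL1, DLL3, JAG1 and NOTCH2 did not, with adjusted p from 0.276 to 0.939. Of the 12 glutamatergic neuron markers, 6 passed the same test. Replicate 2 was the highest of both groups for 3 of the 12 (SLC17A7, CAMK2A and DCX), the lowest of both for 4 (SLC17A6, GRIN1, SNAP25 and RBFOX3) and neither for 5, so the list had no common direction. Their part in the HES4 and HES6 values was not tested.

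HES5, a direct Notch target that marks neural stem cells, was sparse. It had 10.4, 14.5 and 12.4 normalized counts untreated and 13.0, 5.8 and 9.2 with isoproterenol. The groups overlapped, and pair 1 was higher while pairs 2 and 3 were lower. Isoproterenol against untreated gave a log2 fold change of -0.43 (SE 0.407, 95% interval -1.284 to 0.417, limma adjusted p = 0.841), and -0.159 without isoproterenol replicate 2.

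HEY1, which encodes a Hairy-related repressor induced by Notch in vessels and brain, had 418.7, 449.0 and 514.1 normalized counts untreated and 460.0, 468.2 and 493.4 with isoproterenol. All treated samples lay inside the untreated range. Its log2 fold change was 0.045 (SE 0.0853, 95% interval -0.133 to 0.224, limma adjusted p = 0.934) and turned to -0.0205 without untreated replicate 1.

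Among the ligands, DLL1, which activates Notch in neighbouring cells, had 303.9, 327.1 and 304.1 normalized counts untreated and 312.3, 320.6 and 354.9 with isoproterenol. Only treated replicate 3 exceeded the untreated range. The log2 fold change came to 0.078 (SE 0.0919, 95% interval -0.115 to 0.27, limma adjusted p = 0.886), and 0.0226 without that sample. DLL1 shares 370 exonic bases with FAM120B on the opposite strand, and since the use of strand in counting is not stated, reads there cannot be assigned with certainty.

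DLL3, a divergent family member that acts mainly inside the cell and dampens Notch, had 935.6, 1096.3 and 1014.8 normalized counts untreated and 1033.7, 1013.7 and 1159.1 with isoproterenol. The groups overlapped, with pairs 1 and 3 higher and pair 2 lower. Isoproterenol against untreated gave a log2 fold change of 0.074 (SE 0.069, 95% interval -0.07 to 0.218, limma adjusted p = 0.841), the narrowest unblocked interval of the 9. Without isoproterenol replicate 3 it was 0.0145, and without untreated replicate 2 it was 0.131.

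JAG1, a ligand of the Jagged family, was at 44.9, 35.8 and 49.7 normalized counts untreated and at 73.8, 49.6 and 46.2 with isoproterenol. Treated replicate 1 stood above all other samples. Its log2 fold change was 0.35 (SE 0.228, 95% interval -0.124 to 0.831, limma adjusted p = 0.751), and 0.149 without isoproterenol replicate 1. JAG1 shares 306 exonic bases with a long noncoding RNA on the opposite strand.

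NOTCH2, the receptor of the group, had 8.4, 9.7 and 12.4 normalized counts untreated and 11, 15 and 15.4 with isoproterenol. It was higher in all 3 pairs, by 0.36, 0.58 and 0.29 on the log2 scale, while the groups overlapped at treated replicate 1. The log2 fold change came to 0.41 (SE 0.374, 95% interval -0.373 to 1.191, limma adjusted p = 0.837; 0.702 with the block). These counts are uncertain, because NOTCH2 is nearly identical over part of its length to the human NOTCH2NL copies. One of them, NOTCH2NLC, was in the table and had a log2 fold change of -0.03 (limma adjusted p = 0.993).

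The rest of the pathway was described from lists of its components, of which 70 of 74 were in the table and all 70 were tested. Without the block, limma called 0 of the 70 (5 at an unadjusted p under 0.05, where all genes gave 7.68%), as did edgeR and DESeq2. With the block, limma called 2 higher and 0 lower. That is 2.86% of the 70, near the 2.82% of all genes called higher. Of the 70, 38 had a log2 fold change above 0 (50.5% of all tested genes), with a median of 0.006. In each of the 3 pairs, 14 of the 70 (20.0%) were higher and 5 (7.14%) lower, beside 18.5% and 17.6% of all genes.

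**Figure D4:**
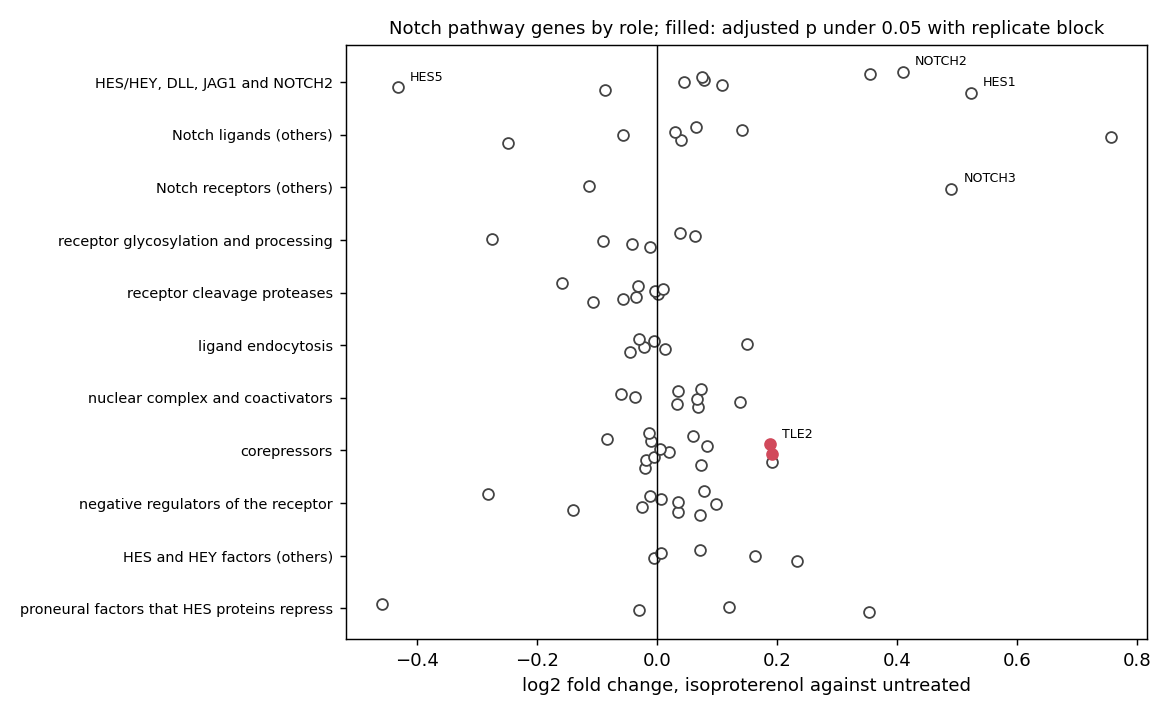
Log2 fold change (x axis) of the 9 genes (top row) and of 70 other Notch pathway genes grouped by role, 1 point per gene. Filled points are the 2 genes, TLE2 among them, that passed an adjusted p of 0.05 in limma with the replicate block, and all others are open.

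The calls made with the block fell among the 14 corepressors. TLE2, a Groucho-family corepressor recruited by HES proteins, had 1790.8, 1551.1 and 1853.8 normalized counts untreated and 1930.8, 1844.1 and 2135.6 with isoproterenol. Each pair was higher, by 0.11, 0.25 and 0.20 on the log2 scale, although treated replicate 2 lay inside the untreated range. Its log2 fold change was 0.19 (SE 0.0683), with a limma adjusted p of 0.539 without the block and 0.000324 with it. Without untreated replicate 2 the unblocked log2 fold change was 0.11. DESeq2 with the block gave an adjusted p of 0.139.

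Of the other receptors, NOTCH3 had 56.4, 50.3 and 61.0 normalized counts untreated and 71.8, 72.7 and 93.3 with isoproterenol. The groups did not overlap, but the log2 fold change of 0.49 (SE 0.186, 95% interval 0.102 to 0.879) did not pass the adjusted test (limma adjusted p = 0.555, and 0.116 with the block).

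NEUROG2, a proneural gene held in check by HES repressors, had a log2 fold change of -0.03 (95% interval -0.49 to 0.43, limma adjusted p = 0.985). Because the neurons carry an NGN2 transgene, reads of the gene and of the transgene may not be separable.

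Core machinery was not called. RBPJ, the DNA-binding protein of the pathway, had 2296 ± 52.33 normalized counts untreated and 2408 ± 93.15 with isoproterenol (SD, n = 3; log2 fold change 0.068, 95% interval -0.033 to 0.169, limma adjusted p = 0.78). ADAM10, the protease that makes the first ligand-dependent cut in the receptor, stood at 1419 ± 96.6 and 1316 ± 55.06, lower in each pair (log2 fold change -0.107, 95% interval -0.232 to 0.018, limma adjusted p = 0.7, and 0.152 with the block).

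Modulators were likewise not called. NRARP, a Notch target that feeds back on the receptor complex, stood at 124.3, 112.2 and 120.0 normalized counts untreated and 95.8, 101.5 and 128.2 with isoproterenol, with overlapping groups (log2 fold change -0.14, 95% interval -0.455 to 0.174, limma adjusted p = 0.872). NUMB, an inhibitor of the receptor, had a log2 fold change of 0.071 (95% interval -0.103 to 0.245, limma adjusted p = 0.885). LFNG, a glycosyltransferase that tunes ligand preference, had 16.93 ± 3.741 normalized counts untreated and 16 ± 4.491 with isoproterenol (log2 fold change -0.09, 95% interval -0.805 to 0.625, limma adjusted p = 0.972).

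Cell types other than glutamatergic neurons, and proliferation, were checked by lists of markers. Of 10 neural progenitor and radial glia markers, 8 were in the table (all but SLC1A3 and HOPX) and 6 were tested. The 8 had a summed level of 9374 to 9701 untreated and 9271 to 9683 with isoproterenol. NES and VIM, intermediate filament genes of progenitors, were plainly present (6925 ± 158.1 and 2361 ± 138.9 untreated, SD, n = 3), PAX6 stood at 41.66 ± 2.657, and SOX2 was at 0 in 5 samples and at 1.0 in isoproterenol replicate 3. Of the 6 tested, 2 (PAX6 and FABP7) had a log2 fold change above 0, beside 50.5% of all tested genes. The other 4 (NES, VIM, PTPRZ1 and SOX9) were below 0, and the median of the 6 was -0.028. With the block limma called 1 of the 6 higher, against 2.82% of all genes. This was FABP7, a fatty acid binding protein of radial glia. It had 35.5, 31.0 and 42.4 normalized counts untreated and 81.8, 55.4 and 73.9 with isoproterenol (log2 fold change 0.93, limma adjusted p = 0.205 without the block and 0.00169 with it). Astrocyte markers (3 of 6 in the table, without GFAP, ALDH1L1 and GJA1) summed to 3138 to 3469 untreated and 3026 to 3361 with isoproterenol. This sum was mostly SLC1A2 (3161 ± 165.1 untreated, SD, n = 3), with AQP4 at 114.5 and S100B at 50.93. Of the 3, 0 had a log2 fold change above 0 and 2 were lower in each pair (17.6% of all genes), and limma called 0 in either fit. Pluripotency markers (3 of 7, without NANOG, L1TD1, TDGF1 and ZFP42) summed to 51.17 to 84.18 untreated and 59.87 to 71.5 treated. Proliferation markers (2 of 6, CCNB1 and PCNA) summed to 395.8 to 407.4 untreated and 406.2 to 463.6 treated. MKI67, TOP2A, CDK1 and BIRC5 were not in the table. GABAergic neuron markers (3 of 5, without DLX1 and DLX2) summed to 55.34 to 59.99 untreated and 66.89 to 78.98 treated. Among them GAD1 (log2 fold change 0.74) and GAD2 (0.49) were higher in each pair (18.5% of all genes). SLC32A1 (-0.38) was lower in each (17.6% of all genes), and limma called 0 of the 3 in either fit. At an unadjusted p under 0.05, limma found 0 of the 3 without the block (7.68% of all genes) and 1 with it (16.2%). The part of these cell types in the values above was not tested.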

How the data were processed

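Poly(A) RNA of 6 samples of RBM12 knockdown neurons (3 untreated, 3 isoproterenol) was sequenced from directional libraries. The authors aligned reads to GRCh38 with STAR and counted them per gene with featureCounts from Subread, and the versions and the use of strand are not given in the sources used here. The values the authors deposited are a signal, namely each gene's count over a DESeq2 size factor for the sample (0.867 to 1.033). Dividing every column by its smallest step returned whole reads (within 0.01) for 100% of values. No columns were set aside. Groups and replicate numbers came from the sample titles.

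Genes with more than 5 reads in at least 4 samples were kept, as in the study's methods. The main test was limma 3.58.1 in R 4.3.3 (two-sided, intensity trend, robust) on log2(normalized count + 1), with Benjamini-Hochberg adjustment over all 18130 genes. Fold changes are on the scale with 1 added, which understates changes of low genes. The replicate number entered as a block in the alternative fit. In 11587 genes averaging 100 or more, samples sharing a number deviated together from the group means (correlations of 0.269, 0.493 and 0.388). The numbers were taken as pairs in the blocked fit, whereas the main test ignored them. Within groups, libraries differed beyond counting noise (chi-square per degree of freedom 4.27 to 7.49).

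Other settings were edgeR 4.0.16 and DESeq2 1.42.0 on the recovered reads, other scalings, pseudocounts and filters, and leaving out each sample or pair. All tests were checked on simulated data with changes placed only in genes averaging 50 counts or more. For the tests of treatment the simulation held no difference between replicate numbers. The check therefore does not cover sparser genes or the replicate differences seen here. The members and gene lists were chosen with earlier results of these data known. Besides the 9 genes, the text names NRARP, NOTCH3, RBPJ, LFNG, NUMB, ADAM10 and NEUROG2, any listed pathway gene past an adjusted p of 0.05 with or without the block, FOS, FOSB, NR4A1, NR4A3 and RBM12. Single genes of the marker lists, and NOTCH2NLC, were named after their values were seen. Some genes that this rule names are not reported here. Gene models were those of GENCODE release 44 (19742 of 19823 identifiers found), and promoters came from RefSeq.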

Additional observations from a re-analysis of the deposited data

How the results depend on the processing

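No setting called any of the 9 genes. With the replicate number as a block, the genes called among all tested rose from 3 to 885 (977 by edgeR with the block, 143 by DESeq2 with the block, 21 by DESeq2 without it), and those among the 70 pathway genes from 0 to 2 (2 by edgeR with the block, 1 by DESeq2 with the block). The blocked and paired fits changed no call among the 9. Leaving out samples or pairs gave 2 to 665 calls over all genes, 67 of them at most without the block (isoproterenol replicate 2 left out), and 0 to 3 among the pathway genes. In these settings the median ran from 0.0161 to 0.144 for the 9 genes and from 0.00692 to 0.0252 for the pathway genes. Over them, the log2 fold change ran from -0.0049 to 0.97 for HES1, from -0.218 to 0.0024 for HES4 and from -0.0205 to 0.13 for HEY1. The ranges were -0.0269 to 0.193 for NUMB, -0.219 to 0.198 for NEUROG2 and -0.422 to 0.113 for LFNG. In each setting tried, HES4 and HES6 were the 2 of the 9 genes that passed the test of the replicate number (other scalings, pseudocounts, filters and edgeR). Requiring a mean of 50 counts left HES1, HES5, JAG1, NOTCH2, LFNG and NEUROG2 without a value, because their means lay below it.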
